A study of Mus musculus with 9 samples.

Results

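The genes described here are those whose transcripts were higher in both knockdowns of mouse embryonic stem cells (ESCs), one knockdown of Dppa2 and one of Dppa4. They were chosen from the measured values themselves, by a rule applied to the deposited table of log2 expression. A row was taken when its mean over all 9 libraries was above 0, when the Dppa2 siRNA mean and the Dppa4 siRNA mean each stood at least 0.6 above the control mean, and when all 6 knockdown libraries stood above all 3 control libraries. Rows of the mitochondrial genome and 8 named genes of primitive endoderm and methionine metabolism were left out. Of 25965 rows, 12199 had a mean above 0, 204 of these met both differences and 143 were also free of overlap, which is 1.17% of the rows with a mean above 0. Of the names left out, Gata6 alone met the rule, and no mitochondrial row did, so 142 genes remained. The mirrored rule, with the knockdowns lower, took 186 rows. Since the rule used the 2 comparisons with control, all differences from control below describe the choice and carry no test. The number taken moved with single control libraries. Without control siRNA C, 291 rows met the rule, among them 122 of the 142 genes, and without control siRNA B it was 226 rows, among them 131.

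The cells were E14 mouse ESCs of 129/Ola background, feeder-free in serum and LIF. Per the study, siRNA was given to serum ESCs that carry a pair of fluorescent reporters, MERVL::tdTomato and Zscan4c::eGFP, which the labels do not name. They received control siRNA, Dppa2 siRNA or Dppa4 siRNA and were collected at 96 h (4 d), with 3 libraries per treatment (replicates A, B and C). Transfection with siRNA was common to all 3 groups, and no untreated cells were analysed here. The study describes its replicates of the siRNA experiment as biological. In the labels the replicates are named rep3A, rep3B and rep3C in every group, so all libraries share the tag rep3. What this tag stands for is not stated. The labels do not say whether the replicates came from separate cultures or are parts of the same repeat. The p-values therefore measure the spread between these samples. A siRNA pool lowers a transcript without removing it. Both groups are therefore partial losses of function, and RNA from cells that took up no siRNA may be part of each library.

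Dppa2 and Dppa4 are small nuclear proteins with a DNA-binding SAP domain. They form a pair on chromatin in ESCs, germ cells and early embryos, and they are known for 2 things, the activation of genes of the 2-cell embryo and the upkeep of developmental promoters that carry activating and repressive histone marks together. Serum-grown ESCs are a mixed culture, in which small numbers of cells stray towards primitive endoderm, an early extraembryonic lineage, or towards other lineages. In such bulk RNA, fewer cells of a type and less RNA per cell cannot be told apart, and the same holds for more.

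Dppa2 fell by 91.1% with its own siRNA (limma, adjusted p = 2.13e-05) and differed by -0.05 on the log2 scale with Dppa4 siRNA. Dppa4 fell by 47.6% with its own siRNA (adjusted p = 0.000281) and differed by 0.05 with Dppa2 siRNA. By qRT-PCR the study found a larger fall of Dppa4 mRNA with its own siRNA. The study also reports that Dppa4 siRNA reduced Dppa2 protein although Dppa2 mRNA did not change. Dppa2 siRNA reduced Dppa4 protein too, to a smaller extent. The RNA values here therefore do not show how far each protein was lowered in either group. The estimated totals were 17.3 to 40.4 Mreads (megareads) per library. The authors had matched the value distributions of the libraries, and control A, Dppa2 B and Dppa4 C stood somewhat higher for long transcripts than the others, with correlations across rows of 0.53, 0.45 and 0.24 between each library's deviation and the log2 transcript length. In the other libraries these lay between -0.37 and 0.09. With transcript GC content the correlations were -0.40, 0.01 and 0.15 in control A, B and C. They were 0.29, -0.40 and 0.09 with Dppa2 siRNA and 0.47, 0.22 and -0.17 with Dppa4 siRNA. The defining ESC genes were high and even, Pou5f1 at 10.10 to 10.41 over the 9 libraries, and 0 of 20 tested pluripotency genes passed limma in either comparison (3 and 2 at an unadjusted p under 0.05).

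Most of the 142 genes were weakly expressed. Their median level over the 9 libraries was 1.22, against 4.28 for the 12199 rows. On this scale 57 lay between 0 and 1, 48 between 1 and 2, 23 between 2 and 3, 9 between 3 and 5, and 5 above 5. Divided by transcript length, the median log2 level per kb was -0.08 against 2.53 for the rows that matched the annotation. Median inferred reads per gene were 46, 102.5 and 40.5 in control A, B and C, 99, 61 and 67.5 in the Dppa2 siRNA libraries and 100, 98.5 and 64.5 in the Dppa4 siRNA libraries, and 18 genes exceeded 300 reads in at least 1 library. Knockdown minus control had a median of 0.85 for Dppa2 siRNA and of 0.82 for Dppa4 siRNA. Both differences reached 1, where each unit of log2 is a 2-fold step, for 23 genes, and at least one of them did for 47. The gap between the lowest knockdown and the highest control library ran from 0.0076 to 1.30 with a median of 0.29, beside median SDs of 0.28, 0.19 and 0.15 within the control, Dppa2 siRNA and Dppa4 siRNA groups.

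**Figure D1:**
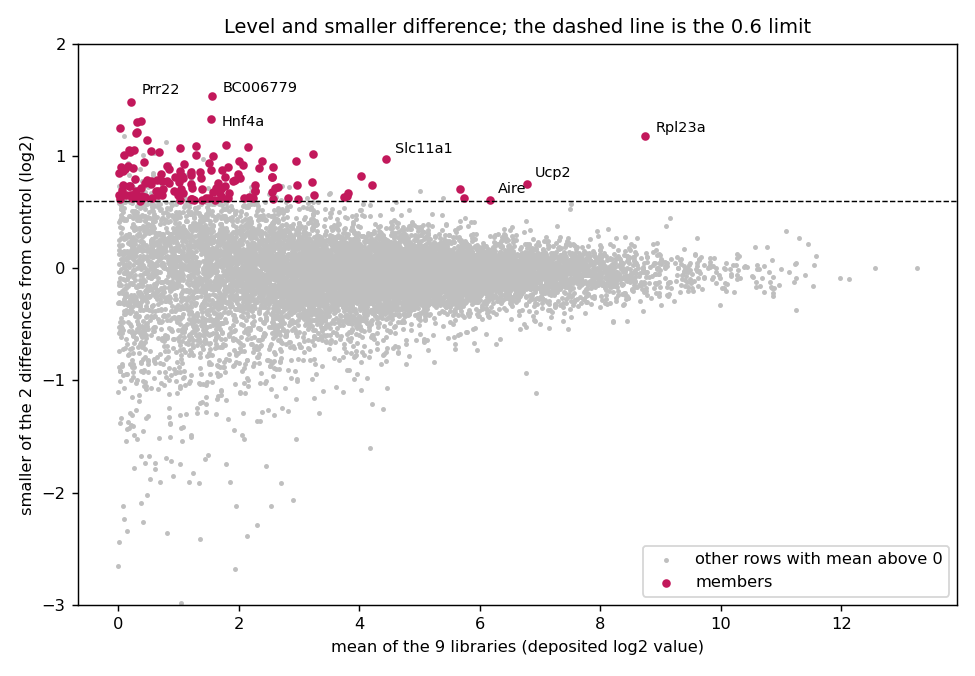
Each point is a row with a mean above 0. The horizontal axis is the mean deposited log2 value over the 9 libraries and the vertical axis the smaller of the differences from control with Dppa2 and Dppa4 siRNA, with the 142 genes in colour. Most of the 142 lie at levels under 3, with Rpl23a far to the right at 8.74. The 62 grey points at or above the line overlap between groups or, for Gata6, were left out by name, and 5 rows under -3 are outside the plot.

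The size of the differences depended on the scaling of low values. Among all rows of level 0 to 1, knockdown minus control had a median of 0.12 (Dppa2 siRNA) and 0.16 (Dppa4 siRNA) in the deposited values, but -0.17 and -0.13 when reads were inferred and divided by the estimated totals. On inferred reads the median differences of the 142 genes were 0.69 and 0.67, and 69 of them still met the rule. After a correction for transcript GC content, length and level they were 0.79 and 0.72, and 97 still met it. Every gene given below with its value in each library stayed above control in both knockdowns on both scales, with differences down to 0.39.

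**Figure D2:**
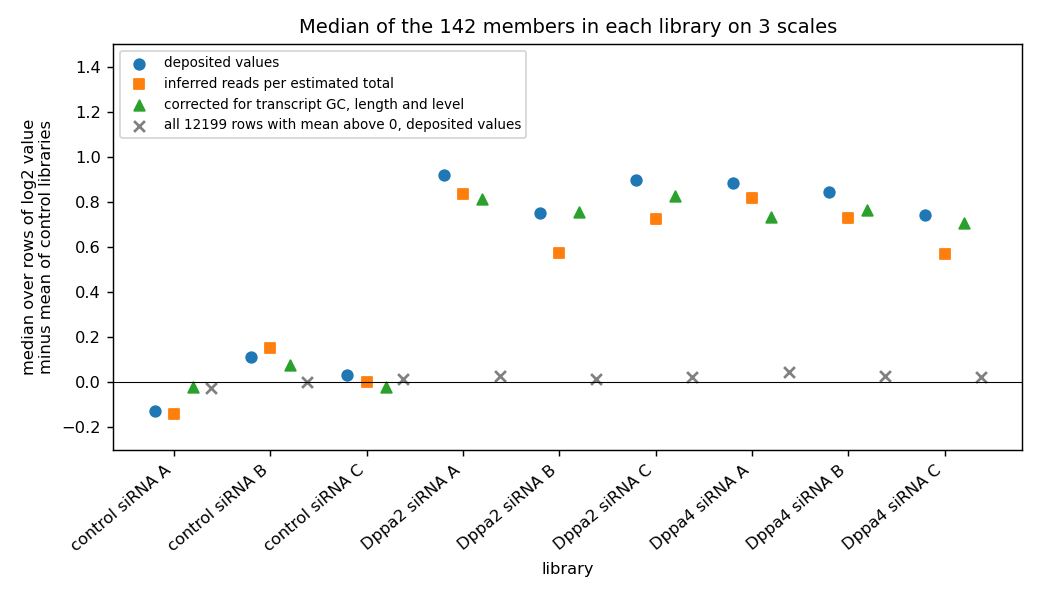
For each library, the vertical axis gives the median over the 142 genes of the log2 value minus the mean of the control libraries, on 3 scales, and as crosses the same over all 12199 rows. The 6 knockdown libraries sit between 0.57 and 0.92 and the 3 control libraries between -0.14 and 0.15 on every scale, while the crosses stay between -0.026 and 0.044.

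Ordered by the smaller of the 2 differences, 12 genes stood first. BC006779 (Helz2), a helicase-domain co-activator of nuclear receptors that is also induced by interferon, was highest. BC006779 values were 0.71, 1.01 and -0.15 in control A, B and C, 1.79, 2.47 and 1.94 with Dppa2 siRNA and 1.98, 2.20 and 2.05 with Dppa4 siRNA. The differences of 1.54 and 1.55 correspond to 2.91-fold and 2.93-fold, and control B, at 1.01, was the nearest control library to the knockdowns. Prr22 encodes a proline-rich protein. Prr22 read -0.83, -1.13 and -0.84 in control A, B and C, against 0.50, 0.69 and 0.46 with Dppa2 siRNA and 1.02, 1.17 and 0.90 with Dppa4 siRNA. Its 3 groups did not overlap with one another, with means of -0.94 ± 0.17, 0.55 ± 0.12 and 1.03 ± 0.14 (SD, n = 3) in control, Dppa2 siRNA and Dppa4 siRNA.

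Hnf4a, the nuclear receptor that governs hepatocyte and visceral endoderm genes, came next. For Hnf4a the control libraries gave 0.09, 0.98 and 0.71, those with Dppa2 siRNA 2.02, 2.06 and 1.70 and those with Dppa4 siRNA 2.22, 2.10 and 1.98. The group means were 0.59 ± 0.45, 1.93 ± 0.20 and 2.10 ± 0.12 (SD, n = 3) in control, Dppa2 siRNA and Dppa4 siRNA, a difference of 1.33 and 1.51. Control A was the lowest library by a wide margin, and the lowest knockdown library, Dppa2 C, was at 1.70 against 0.98 in the highest control library. Apc2, a neuronal relative of the Wnt pathway scaffold Apc that binds microtubules, had nearly equal differences of 1.36 and 1.32. Apc2 stood at -0.40, -0.52 and -0.65 in control, at 0.90, 1.11 and 0.51 with Dppa2 siRNA and at 0.85, 0.94 and 0.60 with Dppa4 siRNA.

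The gene 1700102P08Rik followed, with a control spread that covered more than 1 log2 unit. With Dppa2 siRNA 1700102P08Rik read 1.0, 0.62 and 0.56 and with Dppa4 siRNA 0.68, 1.04 and 0.63, where control had -1.09, -0.60 and -0.03. Ak8, an adenylate kinase of cilia and flagella, had a mean level of 0.02, close to the limit on the mean. Ak8 values were -1.09, -0.77 and -0.65 in control A, B and C, 0.74, 0.36 and 0.41 with Dppa2 siRNA and 0.62, 0.52 and 0.09 with Dppa4 siRNA. Itgam encodes CD11b, the alpha subunit of the integrin that marks myeloid cells. Itgam read -0.17, -0.22 and -1.45 in control A, B and C, against 0.57, 0.69 and 0.56 with Dppa2 siRNA and 0.83, 0.96 and 1.0 with Dppa4 siRNA. Control C held only 10 inferred reads of Itgam, and without it the Dppa2 siRNA difference was 0.80 in place of 1.22. Annotated exons of Gm49368 on the same strand cover 68.7% of Itgam's exon bases, so their reads cannot be told apart.

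Chst1, which adds sulfate to keratan sulfate chains, had the tightest control values of the 12. For Chst1 the control libraries gave -0.45, -0.48 and -0.58, those with Dppa2 siRNA 1.0, 0.41 and 0.69 and those with Dppa4 siRNA 0.83, 0.55 and 0.74. Rpl23a, a protein of the large ribosomal subunit, was by far the highest in level. Rpl23a stood at 7.49, 8.29 and 8.03 in control, at 9.08, 8.86 and 9.51 with Dppa2 siRNA and at 9.04, 9.30 and 9.02 with Dppa4 siRNA. Its stretches of 50 bases were found in another annotated transcript in 74.1% of cases (Gm10335, Gm10132 and Rpl23a-ps3), so its reads and those of its copies cannot be told apart.

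Rdh12 reduces retinaldehyde to retinol in photoreceptors and other cells. With Dppa2 siRNA Rdh12 read 0.88, 0.72 and 0.99 and with Dppa4 siRNA 0.96, 0.94 and 0.67, where control had -0.40, -0.32 and -0.15. Cux2 is a homeobox factor of upper cortical layers. Cux2 values were 1.26, 1.11 and 0.60 in control A, B and C, 2.33, 2.35 and 2.20 with Dppa2 siRNA and 2.27, 2.02 and 1.98 with Dppa4 siRNA. The row D630003M21Rik, at a mean level of 1.29, closed the 12. D630003M21Rik read 0.59, 0.40 and 0.63 in control A, B and C, against 1.67, 1.57 and 1.64 with Dppa2 siRNA and 2.11, 1.72 and 1.32 with Dppa4 siRNA. The ranges of the Dppa2 and Dppa4 siRNA libraries overlapped in 10 of the 12, and in Prr22 and Itgam all 3 Dppa4 siRNA libraries were the higher ones. The same count was not made over all rows, so it does not set Prr22 and Itgam apart.

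**Figure D3:**
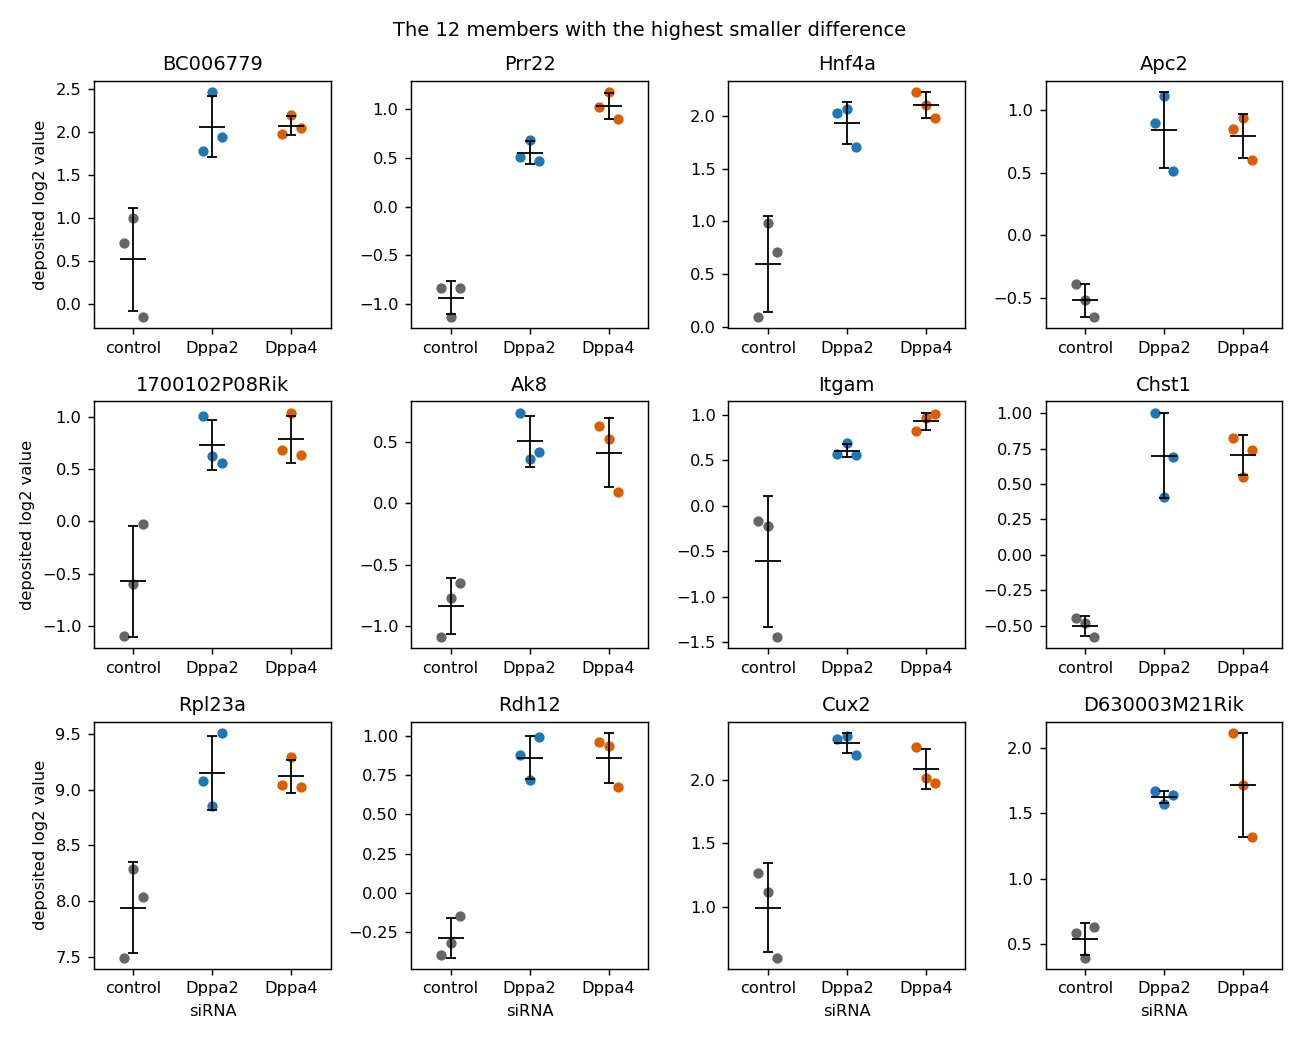
Each panel shows 1 of the 12 genes with the highest smaller difference. Points are single libraries, the bar and whiskers are the mean and SD of 3 libraries, and the vertical axes are deposited log2 values with a separate range per panel. All knockdown points lie above all control points, as the rule required, and Rpl23a alone has values above 7.

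Some of the sequence just upstream of these genes is given because a CpG-poor promoter was more frequent among the 109 of the 142 genes with a RefSeq promoter than among other rows of low level, a property the rule did not use. The lines hold the 120 bases before the RefSeq start (GRCm38.p6, 5′ to 3′ on the gene's strand), with each CpG in capitals. They lie at chr2:181242028-181242147 (- strand, BC006779), chr17:56770156-56770275 (+ strand, Prr22), chr2:163506737-163506856 (+ strand, Hnf4a), chr7:128062520-128062639 (+ strand, Itgam), chr12:79208793-79208912 (+ strand, Rdh12) and chr5:122049852-122049971 (- strand, Cux2). In Hnf4a the RefSeq start is 49 bases from the start of the deposited row and in Cux2 it is 251 bases away, so for these the row may begin at another promoter.
BC006779: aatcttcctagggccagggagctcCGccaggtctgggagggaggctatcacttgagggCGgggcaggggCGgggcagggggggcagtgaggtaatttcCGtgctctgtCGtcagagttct
Prr22: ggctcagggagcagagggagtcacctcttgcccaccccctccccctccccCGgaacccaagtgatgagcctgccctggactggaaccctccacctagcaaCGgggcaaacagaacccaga
Hnf4a: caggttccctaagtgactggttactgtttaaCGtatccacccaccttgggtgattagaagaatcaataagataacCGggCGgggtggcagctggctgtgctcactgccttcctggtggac
Itgam: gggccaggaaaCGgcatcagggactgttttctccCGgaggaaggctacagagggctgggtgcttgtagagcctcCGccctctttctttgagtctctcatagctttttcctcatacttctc
Rdh12: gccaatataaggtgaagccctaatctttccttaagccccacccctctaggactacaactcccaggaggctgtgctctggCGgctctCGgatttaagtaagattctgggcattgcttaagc
Cux2: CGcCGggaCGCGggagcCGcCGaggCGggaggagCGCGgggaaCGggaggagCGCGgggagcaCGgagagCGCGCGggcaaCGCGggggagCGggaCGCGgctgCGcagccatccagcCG
These windows hold 5, 2, 3, 3, 2 and 23 CpG. Cux2 has the dense pattern of a CpG island, while Prr22, Hnf4a, Itgam and Rdh12 are poor in CpG.

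A promoter window of 300 bases (250 before to 50 after the start) was matched for 109 of the 142 genes. The ratio of observed to expected CpG had a median of 0.51, and it was below 0.6 in 69 promoters (63.3%). Among 2506 promoters of other rows with a level of 0 to 3, the median was 0.68 and 38.9% lay below 0.6. Over all 9420 matched rows with a mean above 0 these were 0.78 and 24.2%. Levels within the range from 0 to 3 were not the same, since the 142 sat lower in it. By bands of level, the share below 0.6 was 63.6% of 44 genes against 46.6% of other rows at 0 to 1, 70.3% of 37 against 42.9% at 1 to 2 and 64.7% of 17 against 31.3% at 2 to 3, and 4 of the 11 with a level above 3 lay below 0.6. The counts describe the chosen genes and were not tested. Of the letters searched on both strands, AGATAA, a motif of the GATA factors, was present in 11% of the members' windows and in 6.58% of the other windows of level 0 to 3. TGACTCA (AP-1) was in 7.34% against 3.71% and ACAAAG (SOX factors) in 20.2% against 13.3%. CCAAT was in 26.6% against 37.7%, GGGCGG (GC box) in 51.4% against 62.2% and CCGGAAG (ETS factors) in 9.17% against 11.5%. TATAAA was in 8.26% against 6.50% and CACGTG in 10.1% against 8.58%. CAAAGTCCA, a core motif of HNF4, was in 0 of the 109 and in 0.359% of the others.

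**Figure D4:**
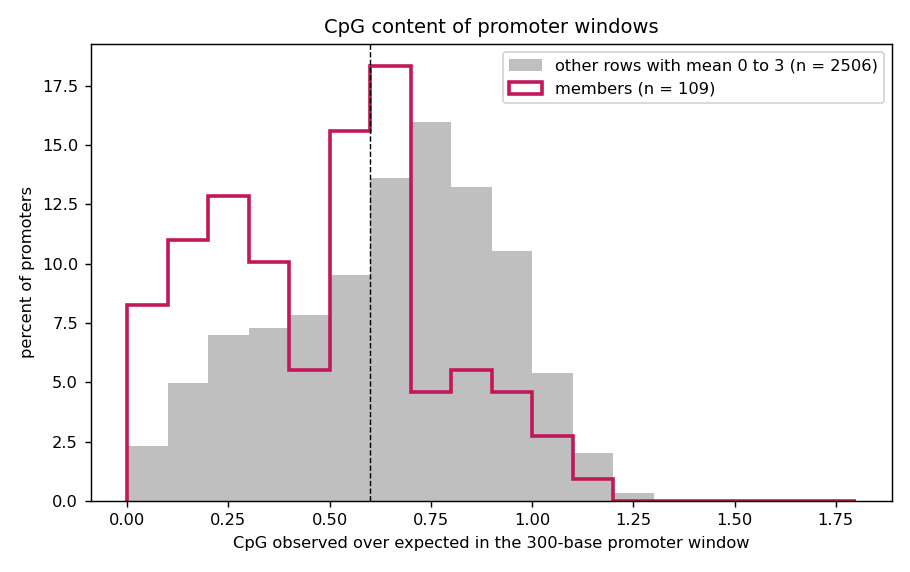
Histograms of the ratio of observed to expected CpG in promoter windows of 300 bases, as the percent of promoters, for the 109 matched genes and for 2506 other rows with a mean log2 value of 0 to 3. The dashed line marks 0.6, with 63.3% of the 109 and 38.9% of the others to its left.

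The transcripts of the 142 were somewhat shorter and richer in GC than others, with medians of 2715 bases and 53.5% GC against 3238 bases and 50.7% for rows of level 0 to 3. By annotation 130 were protein coding, 5 antisense, 3 long intergenic noncoding and 3 processed pseudogenes, with 1 other processed transcript. They were spread over 20 chromosomes, 16 on chromosome 2, 15 on chromosome 7 and 7 on X. The share on X was 4.93%, against 4.09% of rows of level 0 to 3. For the other chromosomes and for the distances that follow, the same was not counted over all rows. In 4 places a pair lay within 100 kb of each other, which were Efcab12 (BC060267) with Ift122 (15.1 kb apart), 9930012K11Rik with Sorbs3 (21 kb), Slc6a7 with Pdgfrb (30.9 kb) and Vill with Dlec1 (30.9 kb).

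Over 5% of the stretches of 50 bases were found in another transcript for 9 of the 142, and over 20% of the exon bases were shared with another gene of the same strand for 5. Exons of a gene on the other strand covered over 20% for 11, where the stranded counting separates the reads.

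The genes were grouped by known function into 13 classes, which were drawn up by hand after the genes were known. No class carries a test. Where a gene is called the highest in level of its class, this is by the deposited value, which is not divided by length.

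**Figure D5:**
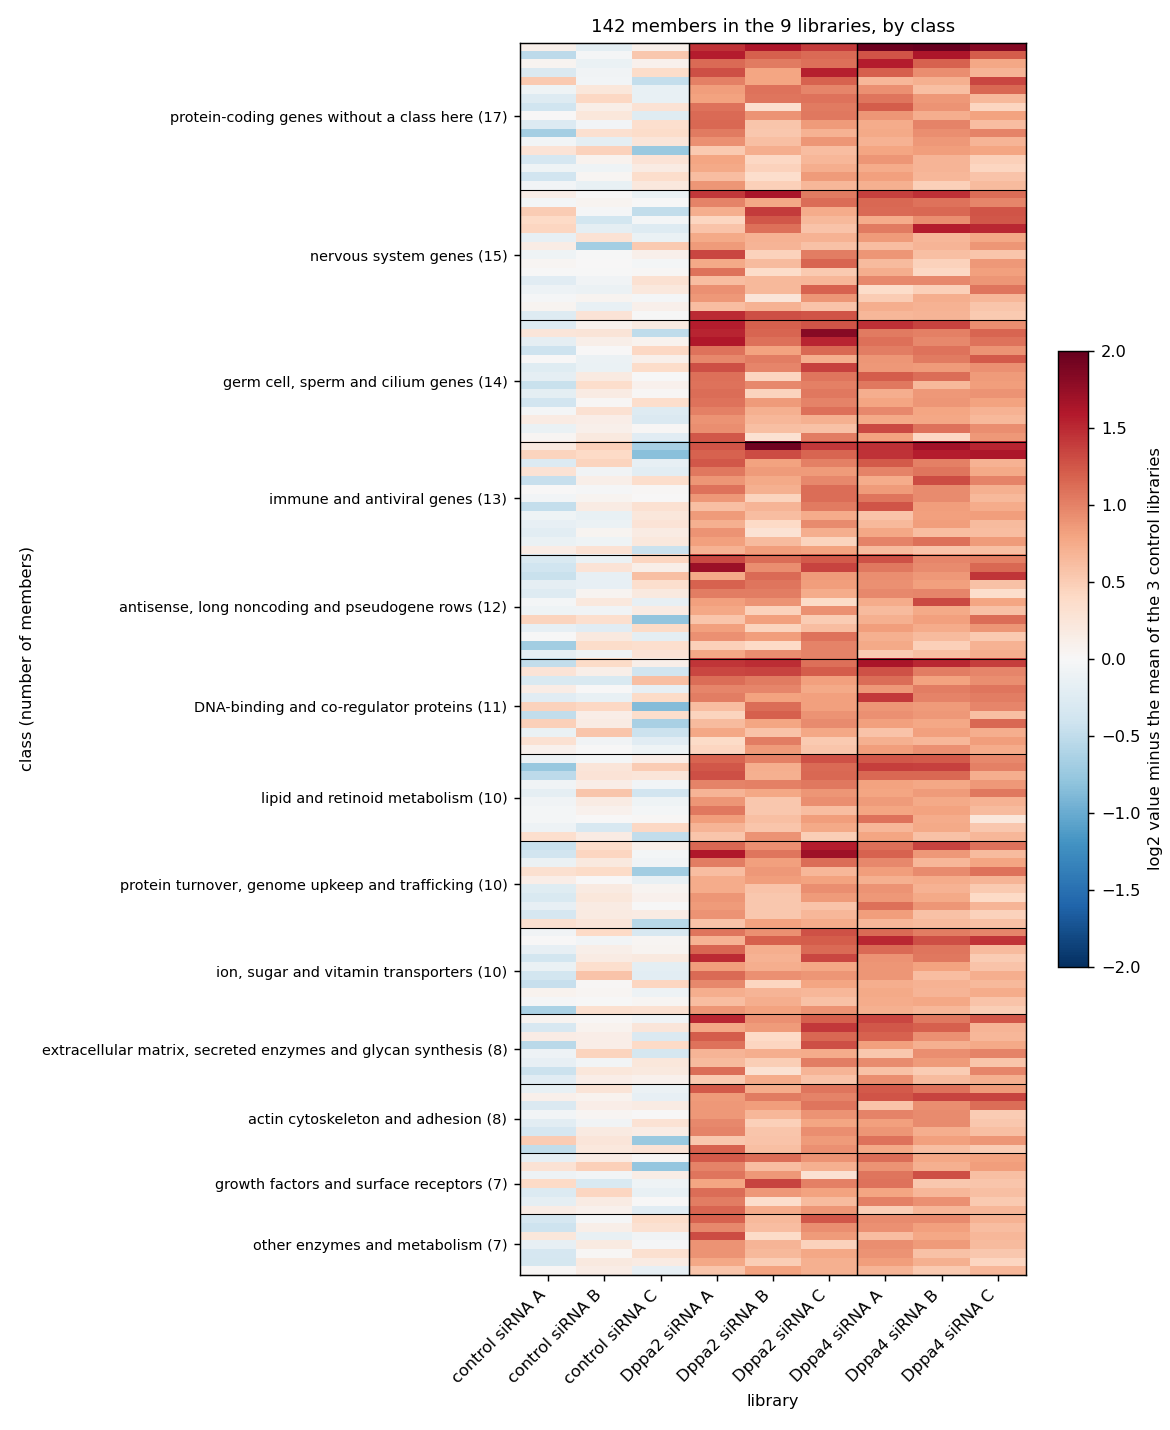
Rows are the 142 genes in 13 classes, columns are the 9 libraries, and the colour is the deposited log2 value minus the mean of the 3 control libraries, from -2 (blue) to 2 (red). Within a class the genes are ordered by the smaller difference. The knockdown columns are red throughout by the rule, and the shade varies from gene to gene within every class.

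Regulators of transcription numbered 11, with levels from 0.01 to 6.17. Hnf4a, Cux2 and Tceal5 led. Tceal5 belongs to an X-linked family of small elongation-factor-like proteins. For Tceal5 the control libraries gave -0.52, -0.52 and 0.39, those with Dppa2 siRNA 0.90, 0.81 and 0.60 and those with Dppa4 siRNA 0.90, 0.58 and 0.71. Control C was higher than the other control libraries, and 31.2% of its stretches recur in Tceal6 and Tceal3. Tceal1 of the same family differed by 0.85 and 0.90, or by 0.42 and 0.47 without control C. Aire, which in the thymus drives the display of tissue antigens and is also present in ESCs, was the highest in level. Aire stood at 5.78, 5.69 and 5.61 in control, at 6.12, 6.54 and 6.24 with Dppa2 siRNA and at 6.53, 6.60 and 6.43 with Dppa4 siRNA. Its differences of 0.61 and 0.83 stand at the lower edge of the rule but rest on the highest counts of the class.

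Of the other regulators, Nfatc2, a calcium-driven factor of T cells, differed by 0.90 and 0.99. Hoxb13, the homeobox gene of prostate and tail, differed by 0.89 and 1.14. Irf5, a factor of innate immune signalling, differed by 0.85 and 0.80, and Bach2, a repressor in lymphocytes, by 0.79 and 0.92, which became 0.47 and 0.60 without control C. Pou2f3, the factor of tuft cells, differed by 0.71 and 0.71 and the Groucho co-repressor Tle2 by 0.65 and 0.73. These regulators belong to unrelated lineages, which the values do not separate.

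Genes of immune cells and antiviral defence numbered 13, and 10 of them were higher with Dppa4 than with Dppa2 siRNA, against 64 of all 142. The contrast of the siRNAs is tested below, where none of the 142 passed. After BC006779 and Itgam came Slc11a1, the divalent metal transporter of macrophage phagosomes, which was also the highest in level. With Dppa2 siRNA Slc11a1 read 5.02, 4.57 and 4.79 and with Dppa4 siRNA 5.0, 4.78 and 4.47, where control had 3.51, 4.21 and 3.60. Its differences of 1.02 and 0.98 were the same on inferred reads, at 1.03 and 0.98. Xaf1, an interferon-induced antagonist of apoptosis inhibitors, differed by 0.92 and 0.94. Oas3, which senses double-stranded RNA, was just inside the limit at 0.78 and 0.60, with 0.39 with Dppa4 siRNA when control C was left out. Clnk, an adaptor of immune receptors, differed by 0.87 and 1.01 and Il2rg, the common gamma chain of interleukin receptors, by 0.81 and 0.89, though 30.5% of its exon bases are shared with Gm20489.

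The remaining immune genes lay between 0.63 and 0.98. Thpo, the cytokine of platelet formation, differed by 0.97 and 0.84 and Treml2, a receptor of myeloid and B cells, by 0.78 and 0.95. C1s, a protease of the classical complement pathway, differed by 0.73 and 0.74, with 24.3% of its stretches also in C1s2. Tnfrsf25 (death receptor 3) differed by 0.68 and 0.71, Lrmp by 0.63 and 0.67 and Myo1g, a myosin of haematopoietic cells, by 0.63 and 0.98. Of 15 other blood and immune markers, Tyrobp, Lyz2 and Hba-x had 0 reads in every library and 9 had a mean under 0. The summed linear level of the 15 ran from 54.2 to 64.3 in the control, 62.3 to 69.0 in the Dppa2 siRNA and 68.5 to 74.4 in the Dppa4 siRNA libraries, and its part in the values of the immune genes was not tested.

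Genes best known from neurons numbered 15. Lrfn3, a synaptic adhesion protein, was even within groups. Lrfn3 values were 1.66, 1.76 and 1.69 in control A, B and C, 2.69, 2.48 and 2.82 with Dppa2 siRNA and 2.85, 2.79 and 2.68 with Dppa4 siRNA. Grin1 is the obligatory subunit of NMDA receptors. Grin1 read 0.54, 1.08 and 0.78 in control A, B and C, against 2.29, 2.09 and 2.05 with Dppa2 siRNA and 1.47, 1.48 and 1.32 with Dppa4 siRNA. All 3 Dppa2 siRNA libraries exceeded all 3 with Dppa4 siRNA. Lrtm2, a leucine-rich membrane protein, had the higher mean with Dppa4 siRNA. For Lrtm2 the control libraries gave 0.27, -0.34 and -0.42, those with Dppa2 siRNA 0.41, 0.94 and 0.41 and those with Dppa4 siRNA 0.87, 1.41 and 1.35.

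Other neuronal genes were Cdh4 (R-cadherin) at 0.77 and 0.97, the kinesin Kifc2 at 0.72 and 0.76, the proline transporter Slc6a7 at 0.71 and 0.72, Reep2 at 0.94 and 0.68 and Psd2 at 0.85 and 0.66. Slc6a7 gave 0.37 and 0.39 without control B. Camk2n2, an inhibitor of CaM kinase II, differed by 0.66 and 0.65, Nrsn2 by 0.64 and 0.93, and Drp2, a dystrophin relative of Schwann cells, by 0.91 and 0.64, the last with 0.42 for Dppa4 siRNA without Dppa4 C. Cacng6, a calcium channel gamma subunit, differed by 0.67 and 0.64 and the small GTPase Rab6b by 0.63 and 0.66. On inferred reads 4 of the 15 kept both differences at or above 0.6, against 75 of all 142.

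Genes of germ cells, sperm and cilia numbered 14, and 11 were lower with Dppa4 than with Dppa2 siRNA, against 78 of all 142. Ak8, Cntd1 and Morn1 led. Cntd1 is a cyclin-like protein needed for meiotic crossovers. Cntd1 stood at 0.41, 0.43 and -0.35 in control, at 1.69, 1.32 and 1.98 with Dppa2 siRNA and at 1.20, 1.17 and 1.33 with Dppa4 siRNA. Morn1, with a repeat found in flagellar proteins, differed by 1.41 and 1.05. With Dppa2 siRNA Morn1 read 1.05, 0.54 and 0.96 and with Dppa4 siRNA 0.53, 0.40 and 0.53, where control had -0.75, -0.45 and -0.49. Iqcg, a protein of the sperm tail, was the highest in level of the class. Iqcg values were 3.06, 3.47 and 3.79 in control A, B and C, 4.52, 4.29 and 4.42 with Dppa2 siRNA and 4.22, 4.31 and 4.24 with Dppa4 siRNA.

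Meiosis and testis were further represented by Hormad2, which monitors chromosome pairing, at 1.01 and 1.0, the sperm lactate dehydrogenase Ldhc at 1.21 and 0.88, the testis gene Tsx of the X inactivation centre at 0.87 and 1.07, and Tcp11 at 0.94 and 0.81. Catsper2, part of the sperm calcium channel, differed by 0.86 and 0.69 and the kinase Hipk4 by 0.70 and 1.12. Nlrp4f, of an oocyte-expressed family, differed by 0.91 and 1.05. Among cilium genes, Ift122 of the transport complex differed by 0.76 and 0.73, Dlec1 by 1.02 and 0.84 and Ccdc57 by 0.87 and 0.83. The rule set the direction of these genes. On the germ cell list, which holds none of them, 11 and 10 of 19 tested genes were lowered with Dppa2 and Dppa4 siRNA (limma). Among them were Ddx4 at -1.91 and -1.19 and Dazl at -2.36 and -2.19. Of all 14601 tested genes, 2.27% and 2.34% were lowered.

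Transporters numbered 10. Atp4a, the catalytic subunit of the gastric proton pump, led. Atp4a read -0.24, 0.23 and -0.49 in control A, B and C, against 0.90, 0.75 and 1.10 with Dppa2 siRNA and 0.96, 0.86 and 0.81 with Dppa4 siRNA. The sugar transporter Slc2a7 had nearly constant control values. For Slc2a7 the control libraries gave -0.60, -0.66 and -0.58, those with Dppa2 siRNA 0.08, 0.58 and 0.60 and those with Dppa4 siRNA 0.90, 0.68 and 0.81. Serinc2 followed at 1.01 and 0.94. Serinc2 stood at 0.69, 0.97 and 0.91 in control, at 2.02, 1.57 and 1.98 with Dppa2 siRNA and at 1.98, 1.92 and 1.49 with Dppa4 siRNA. Ucp2, a carrier of the mitochondrial inner membrane, was the highest in level. With Dppa2 siRNA Ucp2 read 7.11, 7.0 and 7.05 and with Dppa4 siRNA 7.16, 7.08 and 6.85, where control had 6.14, 6.61 and 6.08. Its differences were 0.78 and 0.75 and its inferred read values gave 0.78 and 0.76. The organic cation transporter relative Slc22a18 differed by 1.17 and 0.82, transferrin receptor 2 (Tfr2) by 0.98 and 0.74 and Tmc4 by 0.73 and 0.69. The riboflavin transporter Slc52a3 differed by 0.69 and 0.73, the calcium pump Atp2a3 by 0.64 and 0.70 and the magnesium transporter Slc41a3 by 0.86 and 0.62, the last by 0.54 and 0.30 without control A. On inferred reads 8 of the 10 kept both differences at or above 0.6, against 75 of all 142.

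Lipid and retinoid genes numbered 10. Rdh12 was joined by Retsat, which saturates retinol and was the highest in level. Retsat values were 2.62, 2.85 and 2.60 in control A, B and C, 3.57, 3.22 and 3.62 with Dppa2 siRNA and 3.54, 3.45 and 3.39 with Dppa4 siRNA. Mtmr11, a phosphatase-like protein, and Gdpd5, a phosphodiesterase, followed Rdh12. Mtmr11 read -0.83, 0.16 and 0.43 in control A, B and C, against 1.16, 0.65 and 1.05 with Dppa2 siRNA and 1.30, 1.29 and 0.93 with Dppa4 siRNA. Without control A the Dppa2 siRNA difference of Mtmr11 was 0.66 in place of 1.04. For Gdpd5 the control libraries gave 0.09, 0.89 and 0.85, those with Dppa2 siRNA 1.90, 1.32 and 1.76 and those with Dppa4 siRNA 1.76, 1.76 and 1.33. Pla2g5, a secreted phospholipase, differed by 1.02 and 0.82, and Ptges, which makes prostaglandin E2, by 0.74 and 0.74. Apobr, a receptor for apolipoprotein B, differed by 0.78 and 0.89, and the desaturase Scd3 by 0.76 and 0.69. Awat2, a wax synthase, differed by 0.66 and 0.66 and Cyp4f17 by 0.65 and 0.69, with 0.40 and 0.44 without control C.

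Extracellular matrix and glycan genes numbered 8, nearly all at low level with a class median of 0.34. Chst1 was followed by Dpcr1 (Mucl3), a mucin-like protein. Dpcr1 stood at -0.91, -0.52 and -0.35 in control, at 0.18, 0.25 and 0.82 with Dppa2 siRNA and at 0.65, 0.61 and 0.09 with Dppa4 siRNA. Loxl3 crosslinks collagen. With Dppa2 siRNA Loxl3 read 0.76, -0.05 and 0.69 and with Dppa4 siRNA 0.73, 0.46 and 0.20, where control had -0.30, -0.32 and -0.74. Its Dppa2 B value of -0.05 was the lowest knockdown value and close to the control range. Emid2 (Col26a1), a collagen, was the highest in level. Emid2 values were 0.96, 1.07 and 1.35 in control A, B and C, 1.76, 1.62 and 2.14 with Dppa2 siRNA and 2.07, 1.98 and 1.67 with Dppa4 siRNA. The metalloproteinase Mmp28 differed by 0.72 and 0.82, the carboxypeptidase Cpz by 0.94 and 0.76, the elastase Cela1 by 0.70 and 0.69 and Chst14, which sulfates dermatan, by 0.61 and 0.76. Without control A the Dppa4 siRNA difference of Cpz was 0.49.

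Growth factors and surface receptors numbered 7. Pdgfrb, the receptor for PDGF-B of mesenchymal cells, was the highest. Pdgfrb read 0.99, 1.30 and 1.18 in control A, B and C, against 2.38, 2.28 and 2.05 with Dppa2 siRNA and 2.28, 1.93 and 1.96 with Dppa4 siRNA. The group means were 1.16 ± 0.16, 2.23 ± 0.17 and 2.06 ± 0.19 (SD, n = 3) in control, Dppa2 siRNA and Dppa4 siRNA. Vsig10l and Cdhr4, an immunoglobulin-domain and a cadherin-related membrane protein, came next. For Vsig10l the control libraries gave 0.56, 0.75 and -0.49, those with Dppa2 siRNA 1.27, 0.89 and 0.99 and those with Dppa4 siRNA 1.17, 0.99 and 1.11. Without control C the differences of Vsig10l were 0.39 and 0.43. Cdhr4 stood at -0.60, -0.56 and -0.35 in control, at 0.57, 0.36 and -0.20 with Dppa2 siRNA and at 0.57, 0.79 and 0.09 with Dppa4 siRNA. Exons of other annotated genes on the same strand cover 47.3% of Cdhr4. Acvrl1 (ALK1), the type I receptor for BMP9 of endothelium, differed by 1.05 and 0.73, Emp2 by 0.92 and 0.69, Rell2 by 0.67 and 0.81 and Fgf11, an intracellular member of the FGF family, by 0.93 and 0.61. On inferred reads 1 of the 7, Pdgfrb, kept both differences at or above 0.6, against 75 of all 142.

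Actin and adhesion genes numbered 8 with a class median level of 1.89. Myl6b, a myosin light chain, led the class. With Dppa2 siRNA Myl6b read 3.77, 3.29 and 3.62 and with Dppa4 siRNA 3.76, 3.63 and 3.39, where control had 2.39, 2.80 and 2.43. Cdc42ep1, an effector of Cdc42, was higher with Dppa4 siRNA in every library. Cdc42ep1 values were 1.34, 1.31 and 1.08 in control A, B and C, 2.10, 2.28 and 2.23 with Dppa2 siRNA and 2.51, 2.60 and 2.59 with Dppa4 siRNA. Afap1l2 binds Src and actin. Afap1l2 read 0.14, 0.56 and 0.60 in control A, B and C, against 1.30, 1.27 and 1.5 with Dppa2 siRNA and 1.0, 1.36 and 1.55 with Dppa4 siRNA. Vill, a villin relative, was the highest in level. For Vill the control libraries gave 3.35, 3.87 and 3.83, those with Dppa2 siRNA 4.68, 4.24 and 4.61 and those with Dppa4 siRNA 4.56, 4.42 and 4.29. Rapgef3 (Epac1), the cAMP-driven activator of Rap1, differed by 0.74 and 0.76 and Ankrd23 by 0.81 and 0.82, with 78.2% of the Ankrd23 exon bases shared with Gm42417. Tgfb1i1 (Hic-5), a focal adhesion protein, differed by 0.66 and 0.93, and by 0.28 and 0.56 without control C. Sorbs3 (vinexin) differed by 0.90 and 0.62, with 0.38 for Dppa4 siRNA without control A.

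Protein turnover, genome upkeep and trafficking took 10 genes, with Rpl23a among them. Lnx1, a ubiquitin ligase of Numb, had a larger difference with Dppa2 than with Dppa4 siRNA. Lnx1 stood at -0.91, -0.11 and -0.58 in control, at 1.07, 0.54 and 1.16 with Dppa2 siRNA and at 0.65, 0.33 and 0.09 with Dppa4 siRNA. Neil2 removes oxidised bases. With Dppa2 siRNA Neil2 read 2.45, 2.24 and 2.54 and with Dppa4 siRNA 2.38, 2.09 and 2.21, where control had 1.30, 1.62 and 1.35. Parp3, a sensor of DNA breaks, differed by 0.72 and 0.96, and by 0.37 and 0.61 without control C. 2810417H13Rik (Pclaf), a partner of PCNA in replicating cells, differed by 0.79 and 0.71. Kdelr3 retrieves proteins to the endoplasmic reticulum and differed by 0.76 and 0.67. The F-box proteins Fbxl2 and Fbxo44 differed by 0.75 and 0.71 and by 0.70 and 0.63. Fam18a (Tvp23a) differed by 0.65 and 0.89 and Hspa12a, a distant Hsp70 relative, by 0.71 and 0.63, or by 0.42 and 0.35 without control C.

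Other metabolic enzymes numbered 7 with differences up to 1.03. Art5, an ADP-ribosyltransferase, led with control values spread over 0.24 to 0.94. Art5 values were 0.24, 0.56 and 0.94 in control A, B and C, 1.76, 1.23 and 1.83 with Dppa2 siRNA and 1.53, 1.53 and 1.28 with Dppa4 siRNA. Gstm7 is a glutathione transferase. Gstm7 read 0.99, 1.52 and 1.71 in control A, B and C, against 2.37, 2.02 and 2.33 with Dppa2 siRNA and 2.32, 2.23 and 2.03 with Dppa4 siRNA. Zmynd17 (Mss51), a mitochondrial protein of muscle, had its highest value in Dppa2 A. For Zmynd17 the control libraries gave 0.34, -0.05 and 0.03, those with Dppa2 siRNA 1.42, 0.49 and 0.96 and those with Dppa4 siRNA 0.73, 0.88 and 0.78. Abhd8, a hydrolase, was the highest in level. Abhd8 stood at 2.46, 3.01 and 2.98 in control, at 3.59, 3.30 and 3.52 with Dppa2 siRNA and at 3.64, 3.52 and 3.24 with Dppa4 siRNA. The asparaginase Aspg differed by 0.68 and 0.80, Sdr39u1 by 0.77 and 0.67 and 4930583H14Rik (Mgarp), of mitochondria, by 0.69 and 0.62.

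The 12 noncoding and pseudogene rows had a median transcript length of 1356 bases. B230314M03Rik (Lrp8os2), antisense to the lipoprotein receptor gene Lrp8, led. With Dppa2 siRNA B230314M03Rik read 2.70, 2.5 and 2.60 and with Dppa4 siRNA 2.65, 2.35 and 2.38, where control had 1.07, 1.26 and 1.80. C330018A13Rik came next. C330018A13Rik values were -1.01, -0.34 and -0.49 in control A, B and C, 1.10, 0.31 and 0.73 with Dppa2 siRNA and 0.44, 0.33 and 0.53 with Dppa4 siRNA. Gm5867 shares 15.6% of its stretches with Cmpk1. Gm5867 read -0.30, -0.02 and 0.75 in control A, B and C, against 0.90, 1.27 and 0.99 with Dppa2 siRNA and 1.08, 1.01 and 1.58 with Dppa4 siRNA. Gm10268, a pseudogene with 77.5% of its stretches in Rpl17 and its copies, was the highest in level. For Gm10268 the control libraries gave 4.62, 5.68 and 5.65, those with Dppa2 siRNA 5.80, 5.72 and 6.30 and those with Dppa4 siRNA 6.07, 5.79 and 6.01. The low value in control A set its difference, which was 0.27 and 0.29 without that library in place of 0.62 and 0.64. Gm10480 (Bnip3l-ps), with 73.7% of its stretches in Bnip3l, differed by 0.63 and 0.89, and by 0.24 and 0.49 without control C. The remaining rows were Gm16065 (Tbx3os2), Gm16048, Gm7008, Gm10501, A730036I17Rik, 1700086P04Rik and 2810410L24Rik, with differences from 0.62 to 1.03. Gm10501 shares 10.9% of its stretches with Hspa1a and Hspa1b.

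The other 17 protein-coding genes were left without a class. Fam69b, at a mean level of 2.98, was the highest in level of them. Fam69b stood at 2.21, 2.61 and 2.81 in control, at 3.33, 2.96 and 3.21 with Dppa2 siRNA and at 3.43, 3.23 and 3.03 with Dppa4 siRNA. Besides Prr22, 1700102P08Rik and D630003M21Rik, they were 2310030G06Rik (1.21 and 0.93), Lrrc9 (0.99 and 0.90), Dleu7 (0.97 and 0.88), Mab21l3 (0.99 and 0.86), 4921517L17Rik (Cnbd2), BC060267 (Efcab12), Ccdc159, 2610528J11Rik, Zcchc18, Lrrc20, 1600016N20Rik (Lmntd2), 9930012K11Rik and Tmem130. The X-linked Zcchc18 (0.80 and 0.75) lies 281.7 kb from Tceal1. The genes 2610528J11Rik and Lrrc20 each had 1 control library that set their differences, which were 0.41 and 0.55 without control A for the first and 0.26 and 0.44 without control C for the second. In all, 19 of the 142 had a difference that moved by over 1.5 times when 1 library was left out, with control C the library for 11 and control A for 6.

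At the limit of 0.6, the genes just inside were Tmem130 at 0.68 and 0.60, Oas3 at 0.78 and 0.60 and Fgf11 at 0.93 and 0.61. Just outside, and likewise free of overlap, were A230072C01Rik at 0.60 and 0.71 (0.598 before rounding), Mmel1 at 0.60 and 0.76 (0.596) and Speg at 0.80 and 0.59. Smaller differences from 0.6 to below 0.7 were held by 50 of the 142, and 70 rows free of overlap lay from 0.5 to below 0.6.

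Per kilobase of transcript, the highest mean levels were those of Rpl23a (log2 level per kb 9.50), Gm10268 (6.59), Ucp2 (4.79), Aire (4.6), 2810417H13Rik (4.33) and Kdelr3 (3.32). The first pair belong to families with near-identical copies.

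Whether the knockdowns differed from each other is a question the rule did not use, although the demand on both differences favours genes with similar ones. limma, fitted to all 14601 tested genes with 9 libraries, called 3 genes between Dppa4 and Dppa2 siRNA (0.0205%), and none of the 142 was among them. At an unadjusted p under 0.05, 5 of the 142 and 987 of all tested genes (6.76%) passed. Of the 142, 64 were higher and 78 lower with Dppa4 siRNA, with a median difference of -0.011 against 0.0015 over all tested genes. The 95% interval of the difference lay within 1 of 0 for 138 of the 142, which does not show that the siRNAs acted alike. The 5 genes were Grin1 (-0.72, SE 0.17, interval -1.10 to -0.34, adjusted p = 0.586), Lrtm2 (0.62, SE 0.26, 0.033 to 1.21, adjusted p = 0.724), Prr22 (0.48, SE 0.18, 0.069 to 0.89, adjusted p = 0.689), Hipk4 (0.41, SE 0.17, 0.023 to 0.80, adjusted p = 0.724) and Cdc42ep1 (0.36, SE 0.13, 0.073 to 0.65, adjusted p = 0.678). For Grin1 the Dppa4 siRNA libraries, at 1.32 to 1.48, lay below the Dppa2 siRNA libraries, at 2.05 to 2.29, and above the control libraries, at 0.54 to 1.08.

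The lists of lineage markers and pathways give the values of other known genes of each lineage or pathway beside the chosen genes. In bulk RNA they do not show how many cells of a lineage were present. Of 692 genes on 31 lists, 3 were among the 142, which were Hnf4a (primitive endoderm), Pdgfrb (mesoderm, fibroblast and mesenchyme) and Itgam (blood and immune cells). The 142 were themselves few among 25965 rows, 12199 of them with a mean above 0, so the 3 are not read as few or many. The primitive endoderm list also holds genes left out of the rule by name, which could not be among the 142. In the following counts the 142 are left aside, and over all tested genes 1.16% were raised with Dppa2 siRNA and 1.1% with Dppa4 siRNA (170 and 160 raised beside 332 and 342 lowered). On inferred reads the split was 73 and 89 raised beside 439 and 498 lowered, and without 1 library the raised counts ran from 25 to 191 and from 16 to 183. These shares and splits are for adjusted p-values. At an unadjusted p they were not counted for the comparisons with control, so the unadjusted counts below have no background beside them. Of 40 tested primitive endoderm genes, 0 were raised with Dppa2 siRNA and 2 with Dppa4 siRNA, with 1 and 2 lowered. At an unadjusted p under 0.05, 6 and 9 were higher and 5 and 4 lower. The median differences of the 40 were 0.12 and 0.14. All rows with a mean above 0 had 0.017 and 0.028, and rows of level 0 to 3, a band the list is not confined to, had 0.070 and 0.083. The 2 genes raised with Dppa4 siRNA were Gata6, the factor that specifies this lineage (limma, 1.44, SE 0.24, adjusted p = 0.0132), and Sox17, an endoderm factor (1.20, SE 0.25, adjusted p = 0.0348), both left out of the rule by name. With Dppa2 siRNA they differed by 0.75 and 0.74. The 2 calls fell to 0 without Dppa4 A or Dppa4 B and to 1 on inferred reads, without Dppa4 C or without control C. They were also 1 with no filter on low values, with only the 2 groups compared and with the replicate block. They rose to 3 with a pseudocount of 0.5 or without control B, and to 4 after the correction for GC, length and level. The 0 calls with Dppa2 siRNA became 1 without control B or after that correction, and 3 with no filter. The lipoprotein Apob was lowered with Dppa2 siRNA (-3.64), and P4ha2 and Gpc3 with Dppa4 siRNA (-0.75 and -0.70). Afp had 0 reads in every library. The summed linear level of the list ran from 1128 to 1493 in control, 1339 to 1392 in Dppa2 siRNA and 1332 to 1351 in Dppa4 siRNA libraries, so the knockdown ranges lay within that of control, and its part in the Hnf4a values was not tested.

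Mesenchymal markers other than Pdgfrb gave 0 raised genes among 15 tested in either limma comparison, and 0 also at an unadjusted p under 0.05, where 5 and 7 were lower. The median differences of these 15 were -0.22 and -0.38, while Pdgfrb was higher by the rule. Vim was lowered with Dppa2 siRNA (-0.33) and Col5a1 with Dppa4 siRNA (-0.69), Lum and Postn had 0 reads in every library, and the summed levels of 487 to 768 in control enclosed the 560 to 689 and 531 to 616 of the knockdowns. Of 8 tested blood and immune genes 0 passed, with 2 higher and 2 lower for Dppa2 siRNA and 2 higher for Dppa4 siRNA at an unadjusted p under 0.05. Among 11 neuroectoderm genes 0 were raised, also unadjusted, and 2 and 1 were lowered, Dll1 in both (-1.31 and -1.01), with 4 and 5 lower at an unadjusted p under 0.05. Their median differences were -0.41 and -0.36. The summed linear level of the list was 368 to 420 in control, 343 to 366 in Dppa2 siRNA and 359 to 396 in Dppa4 siRNA libraries. All Dppa2 siRNA libraries thus lay below control, while the genes best known from neurons among the 142 were higher by the rule. Of 20 trophoblast, 22 primed epiblast and gastrulation and 19 epithelial genes, 0 were raised, while 3, 1 and 1 were lowered with Dppa2 siRNA and 2, 1 and 1 with Dppa4 siRNA. At an unadjusted p under 0.05, 2, 2 and 3 were higher and 4, 4 and 1 lower for Dppa2 siRNA, and 2, 1 and 0 higher and 4, 3 and 2 lower for Dppa4 siRNA. All 13 tested genes of the 2C-like state were lowered in both comparisons.

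No function list held any of the 142. The lists were written by hand with earlier results known, and the one for interferon and innate response lacks BC006779, Xaf1, Oas3 and Irf5. The absence therefore depends on how the lists were made up. Over the 21 such lists, 4 and 3 raised entries were counted, with P4ha1 counted on each of its lists, and 10 and 12 lowered ones. For the unadjusted counts that follow, the share over all tested genes was likewise not counted, so they are not set against a background. At an unadjusted p under 0.05 the glycolysis and hypoxia list had 13 and 8 of 30 tested genes higher and 0 and 1 lower, with summed linear levels of 11625 to 13865 in control, 13803 to 15266 in Dppa2 siRNA and 13684 to 15054 in Dppa4 siRNA libraries. The list of the amino acid starvation response (ATF4) had 11 and 3 of 30 higher and 1 and 1 lower, and its sums were 2742 to 3361 in control, 3418 to 3733 in Dppa2 siRNA and 3210 to 3653 in Dppa4 siRNA libraries, all of Dppa2 siRNA above control. Cholesterol synthesis genes had 1 and 6 of 24 higher and 1 and 0 lower, with sums of 1117 to 1220, 1237 to 1328 and 1274 to 1351, above control in every knockdown library. Sums free of overlap with control occurred on other function lists too, in both directions, so they do not set these lists apart. Growth arrest genes lay above control with Dppa2 siRNA (514 to 534 against 465 to 506). Below control lay unfolded protein response genes with Dppa2 siRNA (2584 to 2678 against 2793 to 2970) and p53 targets with Dppa4 siRNA (1575 to 1650 against 1711 to 1809). The raised genes were the hexokinase Hk1 (0.49), the collagen hydroxylase P4ha1 (0.48) and the stress gene Ddit4 (0.87) with Dppa2 siRNA, all on the list of glycolysis and hypoxia response, and with Dppa4 siRNA the lactate transporter Slc16a3 (0.50), the haem oxygenase Hmox1 (0.38) and the ligand Bmp4 (0.85). Of 25 tested interferon and innate response genes, 0 were raised with either siRNA (1 each at an unadjusted p under 0.05), beside BC006779, Xaf1, Oas3 and Irf5 among the 142. Their summed linear levels were 824 to 1067 in control, 904 to 1154 in Dppa2 siRNA and 871 to 1036 in Dppa4 siRNA libraries, so the 3 ranges overlapped.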

How the data were processed

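The data were RNA-seq libraries of E14 ESCs, 3 per siRNA. Per the labels and the paper's methods, the authors trimmed reads with Trim Galore (0.4.5 per the labels), aligned them with HISAT2 2.0.5 to the GRCm38 build, quantified mRNA probes by strand in SeqMonk and brought the libraries to matching cumulative distributions. They deposited normalized log2 values, not per length, for 25965 rows, which limit tests to models of continuous values. Matching preserves the order of values, so numbers of reads were inferred here from the rank of the distinct values, up to 300 reads, and estimated by the slope above that. The totals are approximate and cover counting error only.

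The genes, their classes and the gene lists were chosen with earlier results of these data known. The 14601 rows that exceeded a log2 value of -2 in 3 or more libraries were fitted with limma 3.58.1 (R 4.3.3) on all 9 libraries, with an intensity trend and Benjamini-Hochberg adjusted p-values at 0.05. limma was used in place of the authors' count model because the deposited values are not counts. The fit and the rule were tested on simulated data. Values were given in full for the 12 genes with the highest smaller difference and, per class, for the first 3 and the highest in level, with genes that passed an unadjusted p between the siRNAs named after their values were seen. Rows were matched to GENCODE vM21 by name (128 of the 142) or by place with 80% overlap (14), and promoters to RefSeq (GRCm38.p6). Every 5th stretch of 50 bases was looked up in all annotated transcripts. Replicate letters were not used as pairs. Alternatives were other limits, filters, scalings and pseudocounts, a replicate block and leaving out each library. The 2 scalings by inferred reads and by GC, length and level were added after the data were seen. The Dux transcript and 1 of the 142 genes are not reported here.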

Additional observations from a re-analysis of the deposited data

How the results depend on the processing

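The 142 genes became 59 with a difference limit of 0.8 and 23 with a limit of 1, 226 with a mean above -1, 381 with no limit on the mean, 85 with a mean above 1, and 79 with a pseudocount of 0.5 on the linear values. On inferred reads per estimated total, added after the data were seen, 70 rows met the rule, 69 of them among the 142. Leaving out 1 library gave 128 to 291 rows, where fewer control libraries to exceed loosen the rule by construction. The other alternatives kept the count within 1.5 times, and quantile normalization and equal medians returned all 142.

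limma called 502 genes for Dppa2 siRNA against control and 502 for Dppa4 siRNA. Leaving out 1 library gave 232 to 494 and 184 to 506, fits of only the 2 groups compared gave 230 and 294, and the correction for GC, length and level, added after the data were seen, gave 833 and 876. With no filter on low values 9140 genes were called for Dppa2 siRNA, of which 7462 had 0 inferred reads in every library. The replicate block gave 238 and 212 calls. The letters were not treated as pairs, since deviations of same-letter libraries correlated at -0.75 to 0.57, over 0.1 in 3 of 9 pairs, and 2 of 9 libraries correlated best with one of their own letter. The cause of these changes was not tested beyond the smaller number of libraries or groups in each. No alternative called any of the 142 between Dppa4 and Dppa2 siRNA, with 1 to 9 of them at an unadjusted p under 0.05. Among the genes given with a value in each library, no difference from control changed sign under the other scalings, the pseudocount or without 1 library. At 10 to 30 reads per control library, depth limits the precision of the lowest genes, and estimated totals limit that of the reads scale.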
